A study of Mus musculus with 13 samples.

Results

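Nes, Vim, Fabp7, Nr2e1, Msi1, Msi2, Prom1, Hmga2, Lin28b and Igf2bp1 are genes by which neural stem cells are recognised or on which their growth depends. These 10 genes, named without a rule on any peak value but with earlier results of these data known, were followed among 21951 protein-coding genes of the mouse annotation. A gene was given a histone mark where a called peak lay within 2 kb of any of its transcription start sites (TSSs), and peaks elsewhere in the gene were counted apart. A gene was given an OLIG2 peak where a called peak lay in the gene or in the 5 kb upstream of it.

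Neural stem cells (NSCs) give rise to neurons and glia, and along the oligodendrocyte lineage they pass through the oligodendrocyte precursor cell (OPC) to the newly formed oligodendrocyte (NFO). Trimethylation of histone H3 on lysine 4 (H3K4me3) marks promoters that are open to transcription, and trimethylation on lysine 27 (H3K27me3) is laid down by the Polycomb repressive complex over silent developmental genes. Promoters that carry both marks are called bivalent. OLIG2 is a basic helix-loop-helix transcription factor of the oligodendrocyte lineage that binds E-box sequences.

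The study mapped both histone marks at the 3 stages, and OLIG2 binding and OLIG2-bound RNA along the same lineage. The NSCs came from cortices of E14.5 CD-1 embryos and were grown in culture with EGF and FGF, although the strain label of these libraries reads C57BL/6. The OPCs and NFOs were purified by immunopanning from the brains of P7 C57BL/6 pups, on PDGFRα for OPCs and on GalC for NFOs, once microglia and endothelial cells had been taken out on lectin plates. All cells are labelled untreated. Stage therefore cannot be told apart from culture, strain and age in the steps from NSC to OPC. The libraries used were 6 for the histone marks, 2 for OLIG2 (OPC and NFO) and 2 for RNA immunoprecipitation. Each condition had 1 library, so no difference below has a replicate check, no test was made and no error can be given. In the histone libraries the antibody label and the title name opposite marks, and libraries were taken by title. By the titles, H3K4me3 peaks lay at a TSS of 64.3% (NSC), 60.7% (OPC) and 43.6% (NFO) of protein-coding genes, and H3K27me3 peaks at 15.1%, 16.4% and 9.56%.

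The lists held 12688 to 36069 called peaks for the histone marks, and 7384 (OPC) and 16911 (NFO) for OLIG2. The read depth behind them is unknown, so a gene without a called peak is one where none was listed, not one shown to lack the mark. The labelled cell types were checked on their markers. Of 5 OPC markers, all 5 had H3K4me3 at a TSS in OPCs, but also in NSCs, and 4 in NFOs, so these markers did not separate the stages. Of the oligodendrocyte markers, Cnp had it at all 3 stages and Myrf in NSCs and OPCs, while Enpp6 and the myelin genes Mog, Mag and Mobp had no listed H3K4me3 peak at a TSS in any stage, NFOs included. In NSCs, OPCs and NFOs in turn, H3K4me3 lay at 4, 5 and 4 of 5 neuron markers, at 0, 1 and 0 of 5 microglia markers, at 0 of 4 endothelial markers each time and at 2, 1 and 0 of 3 astrocyte markers, and what these have to do with the values below was not tested.

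Each of the 10 genes had H3K4me3 at a TSS in NSCs and again in OPCs, and 6 of them had it in NFOs, beside the shares of all protein-coding genes given above. H3K27me3 lay at a TSS of 4 genes at the NSC stage, 7 at the OPC stage and 4 at the NFO stage. With peaks of at least 500 bp alone, it lay at 3 genes at each stage. In OPCs Msi2 was counted only for a 179 bp peak at an internal TSS, of which 100% of the bases are soft-masked as repeats in the reference. The NFO list held no H3K4me3 peak at Nes, Vim, Msi1 or Prom1, and none of these 4 genes had H3K27me3 at a TSS there either. Among the 13055 protein-coding genes with H3K4me3 in both NSCs and OPCs, 29.8% lacked it in NFOs, against 4 of the 10.

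**Figure D1:**
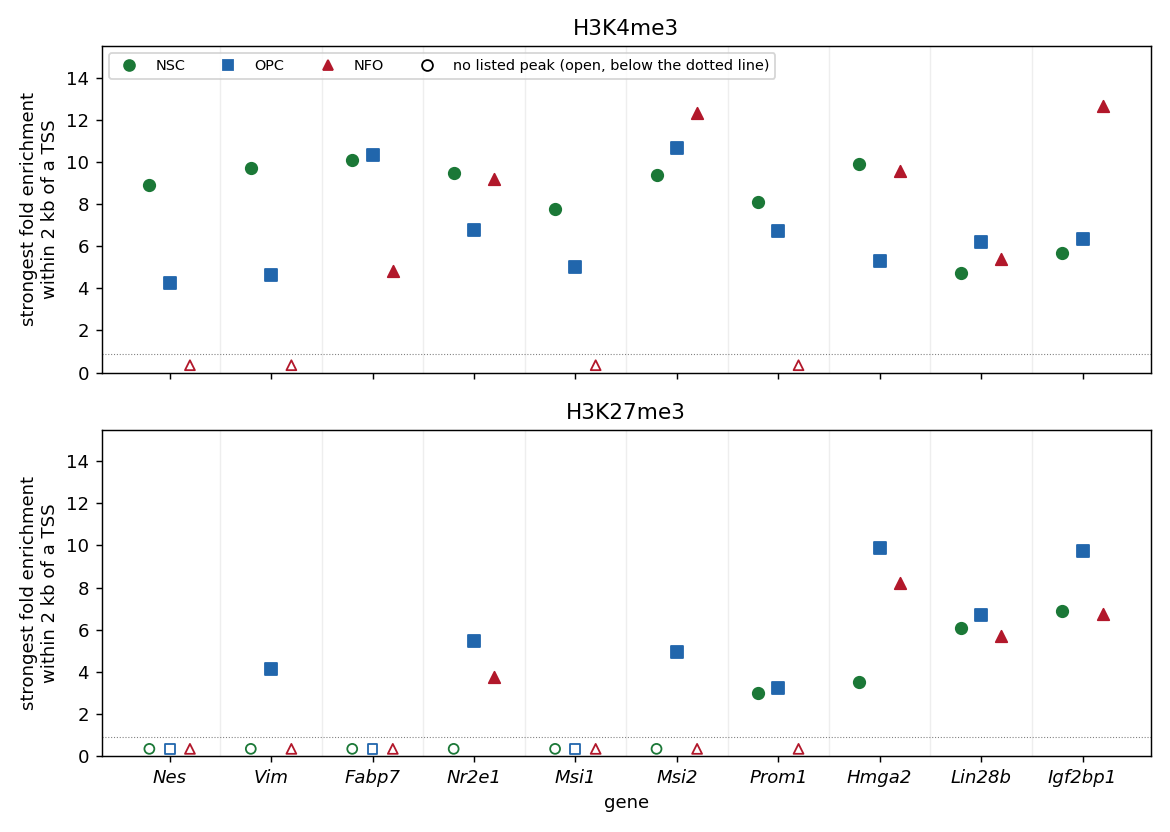
Strongest fold enrichment of a listed peak within 2 kb of any TSS (vertical axis, ratio over control) for each of the 10 genes, with H3K4me3 above and H3K27me3 below. Filled points are the 1 library of each stage and open points below the dotted line are genes with no listed peak. Nes, Vim, Msi1 and Prom1 have no H3K4me3 point in NFOs, and Hmga2, Lin28b and Igf2bp1 have H3K27me3 in all 3 stages.

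Nes (chr3:87971078-87980451, plus strand) and Vim (chr2:13573927-13582826, plus strand) encode nestin and vimentin, the intermediate filaments of neural stem and radial glial cells. At Nes the fold enrichment of H3K4me3 over control was 8.88 in NSCs and 4.25 in OPCs, and no peak was listed in NFOs. The NSC peak ran over 5171 bp and the OPC peak over 777 bp, from −220 to 556 bp of the 5′ end. At Vim the fold enrichment was 9.68 in NSCs over 6642 bp and 4.62 in OPCs over 2115 bp, again with none in NFOs. Both genes thus had a wide NSC peak over the start and first exons and a shorter OPC peak inside it.

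Widths cannot be set side by side between stages as they stand, because the peak names show single-end sequencing for NSCs and paired-end sequencing for both later stages. Fold enrichments are likewise ratios to the control of each library. Among protein-coding genes with H3K4me3 in both stages, the widest peak was narrower in OPCs than in NSCs for 91.3% and the strongest fold enrichment lower for 82%. Among the 10 genes these counts were 9 and 6. Widths were therefore ranked among all protein-coding genes with an H3K4me3 peak in the same list. The Vim peak was wider than those of 99.2% of such genes in NSCs and 80.4% in OPCs. The Nes peak was wider than 97.5% in NSCs and 18.2% in OPCs, the largest difference in rank between these stages among the 10 genes.

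A pair of short peaks lay just beyond the 2 kb limit upstream of Nes. In NSCs a 245 bp H3K4me3 peak from −2471 to −2227 bp, with a fold enrichment of 3.33, fell on a 369 bp H3K27me3 peak from −2573 to −2205 bp with 4.25. In OPCs a 227 bp H3K27me3 peak from −2384 to −2158 bp with a fold enrichment of 4.73 covered part of the same stretch. By the 2 kb rule Nes had H3K4me3 only in NSCs and OPCs and neither mark in NFOs, a course shared by 2718 protein-coding genes (12.4%). Vim differed from it by 1 short H3K27me3 peak in OPCs, 175 bp long with a fold enrichment of 4.14, from −1889 to −1715 bp, which did not touch the H3K4me3 peak.

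Fabp7 (chr10:57784881-57788450, plus strand) encodes the brain lipid-binding protein of radial glia. The strongest H3K4me3 peak stood 10.1-fold over control in NSCs, 10.3-fold in OPCs and 4.80-fold in NFOs, while no H3K27me3 peak was listed at any stage. The widest peak covered 5420 bp in NSCs, 4374 bp at the OPC stage and 3207 bp at the NFO stage. It was wider than the peaks of 98.0%, 98.5% and 99.5% of genes in these lists, so Fabp7 was among the widest at each stage. In OPCs the peak began 54 bp inside the gene and in NFOs the widest peak began 263 bp inside it, while the NSC peak began at −1833 bp. The NFO list held another peak upstream, 492 bp long from −1723 to −1232 bp. The 4.80-fold value belongs to this upstream peak, and the 3207 bp peak stood 4.615-fold over control. H3K4me3 only at all 3 stages was the course of 6623 protein-coding genes (30.2%).

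The 250 bases before the starts of Nes and Fabp7 are shown because these 2 genes lie at opposite ends of the course in NFOs, with no listed peak and with the widest one. Both are on the plus strand of GRCm38 and were read from the reference genome, with each CG, the site of DNA methylation that is dense in CpG islands, in capitals.
Nes, chr3:87970828-87971077: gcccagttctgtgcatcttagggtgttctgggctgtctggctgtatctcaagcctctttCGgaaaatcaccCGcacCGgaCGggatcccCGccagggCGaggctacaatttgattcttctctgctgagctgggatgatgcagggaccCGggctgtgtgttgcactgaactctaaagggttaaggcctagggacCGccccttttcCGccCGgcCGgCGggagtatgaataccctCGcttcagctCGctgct
Fabp7, chr10:57784631-57784880: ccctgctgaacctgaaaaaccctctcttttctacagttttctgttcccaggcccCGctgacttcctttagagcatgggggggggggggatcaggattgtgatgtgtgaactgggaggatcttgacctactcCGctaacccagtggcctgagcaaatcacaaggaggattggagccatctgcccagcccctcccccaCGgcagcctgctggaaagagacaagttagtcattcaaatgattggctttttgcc
The Nes stretch held 14 CG and the Fabp7 stretch 3, or 0.648 and 0.165 of the number that their C and G content gives. Over RefSeq promoters of 300 bases (GRCm38.p6, 250 before to 50 after the start, first start listed for each gene), the median was 7 CG in 27018 promoters. For 8 of the 10 genes a promoter was matched, and CG counts ran from 6 at Fabp7 to 39 at Msi2. Vim had 11, Nes 18, Prom1 10, Nr2e1 19, Hmga2 12 and Lin28b 8. Msi1 and Igf2bp1 were not matched. The genes without listed H3K4me3 in NFOs (10 to 18 CG) lay within the range of those with it (6 to 39 CG).

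Prom1 (chr5:43993620-44102032, minus strand) encodes prominin-1, the surface protein CD133 used to sort neural stem cells. H3K4me3 had a fold enrichment of 8.09 over 2636 bp in NSCs and of 6.71 over 1446 bp in OPCs, and no peak was listed in NFOs. Its H3K27me3 peaks were weak. The NSC peak, with 2.99, lay over a TSS 97 to 98 kb inside the gene, and the OPC peak, with 3.22 over 397 bp, lay at −497 to −101 bp. Neither passed the threshold of 3.5 that the Methods set on fold enrichment, and without them Prom1 had the same states as Nes and Msi1.

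Nr2e1 (chr10:42561963-42583632, minus strand) encodes TLX, an orphan nuclear receptor that keeps neural stem cells in division. H3K4me3 stood 9.49-fold over control in NSCs, 6.77-fold in OPCs and 9.18-fold in NFOs. The widest peak measured 4138 bp, 3316 bp and 989 bp, wider than those of 93.3%, 95.7% and 74.8% of genes. The NFO peak no longer reached the 5′ end and lay at 1230 to 2218 bp inside the gene. H3K27me3 was not listed at a TSS in NSCs. In OPCs a 224 bp peak with a fold enrichment of 5.47 lay within the H3K4me3 peak, and 57.6% of its bases are soft-masked as repeats in the reference. In NFOs a 1159 bp peak with 3.74 lay upstream at −2799 to −1641 bp, apart from H3K4me3. Further H3K27me3 peaks lay upstream in both OPCs and NFOs, as the map of peaks around the 5′ ends shows. In OPCs they lay at −2833 to −2651 bp with 4.29 and at −7007 to −6798 bp with 6.70. In NFOs they lay at −5011 to −4379 bp with 3.28 and at −7787 to −6786 bp with 4.54. Only 59 protein-coding genes (0.269%) had these states at the 3 stages. The start of Ostm1, on the other strand, lies 190 bp from a start of Nr2e1, so peaks over this stretch cannot be given to 1 of the 2 genes.

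**Figure D2:**
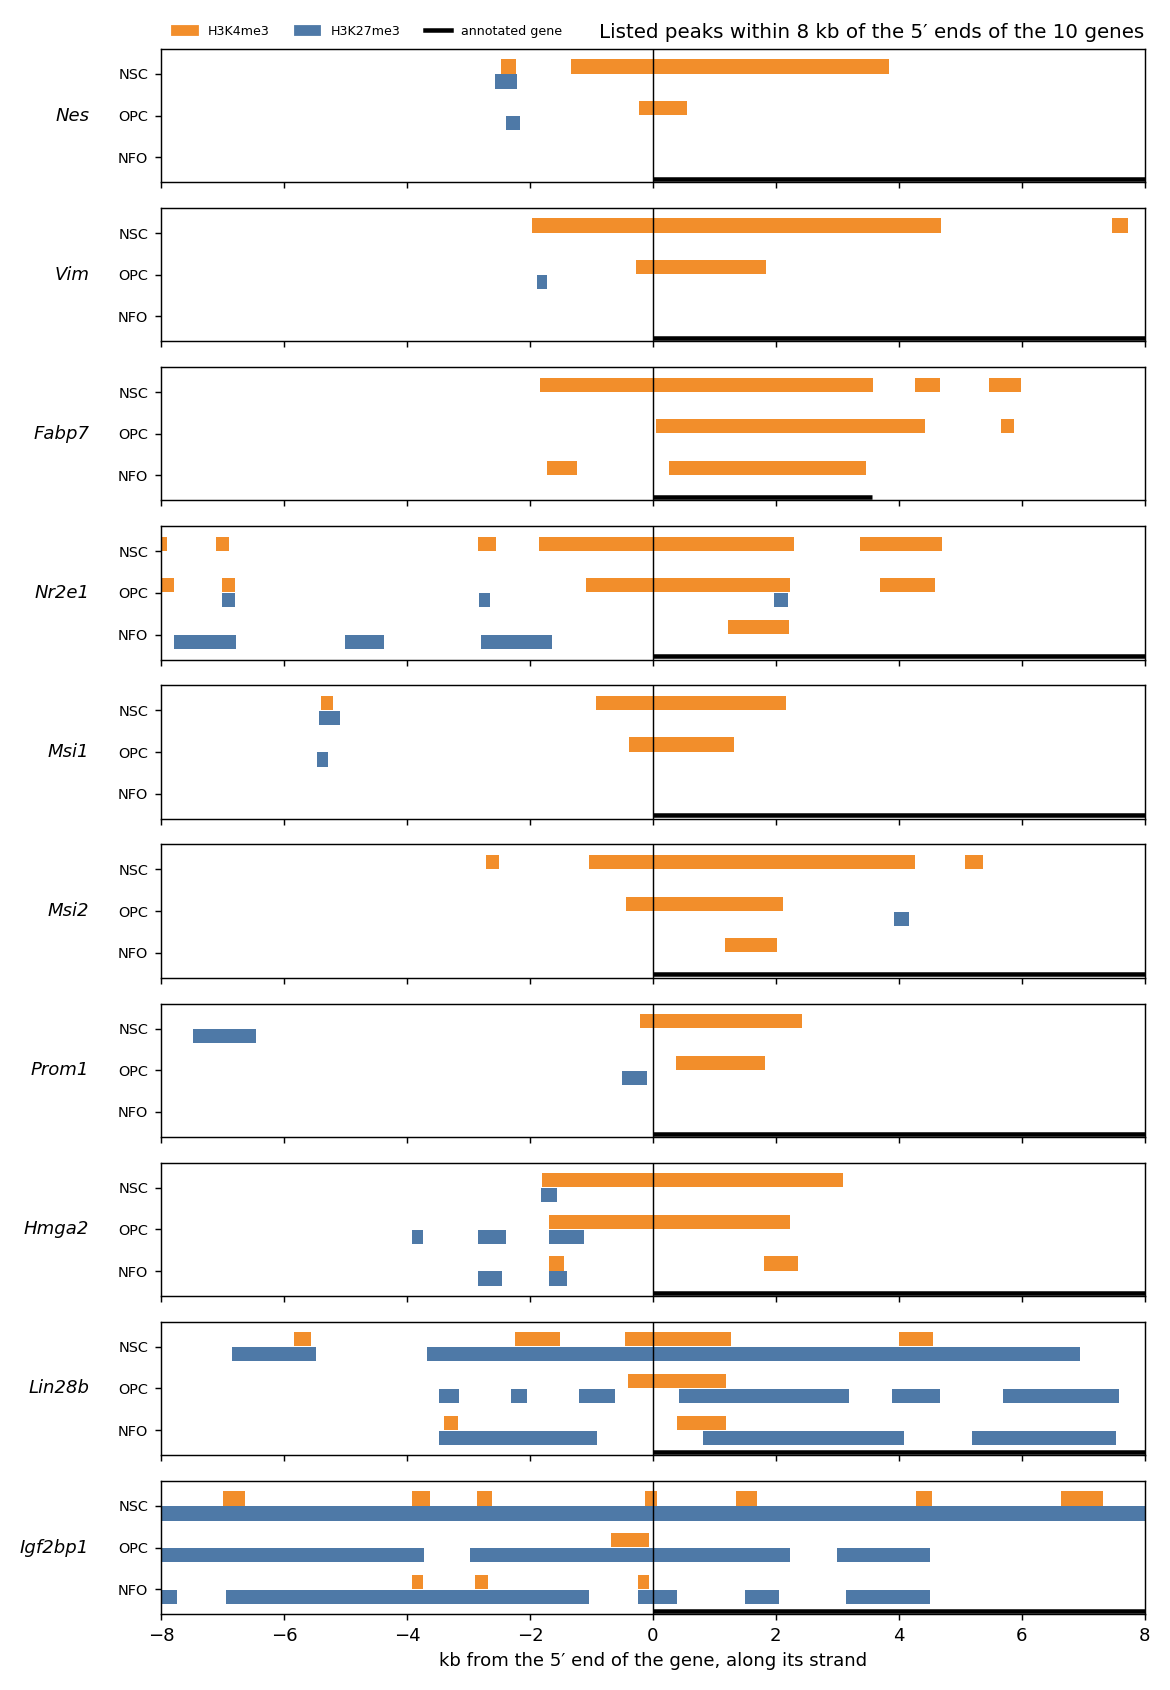
Listed H3K4me3 (orange) and H3K27me3 (blue) peaks within 8 kb of the 5′ end of each of the 10 genes (horizontal axis, kb along the strand of the gene), in 3 rows for NSC, OPC and NFO, with the annotated gene as a black line. H3K4me3 crosses 0 at 10 genes in NSCs, 7 in OPCs and none in NFOs, and H3K27me3 runs over kilobases at Lin28b and Igf2bp1.

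Msi1 (chr5:115429599-115455698, plus strand) and Msi2 (chr11:88339382-88718513, minus strand) encode the Musashi RNA-binding proteins, which hold back translation of differentiation factors in stem cells. These relatives parted in NFOs. At Msi1 the fold enrichment of H3K4me3 was 7.78 over 3090 bp in NSCs and 4.996 over 1715 bp in OPCs, with none listed in NFOs and no H3K27me3 within 2 kb of a TSS or in the gene at any stage. At Msi2 it was 9.38 over 5305 bp in NSCs, 10.6 over 2560 bp in OPCs and 12.3 over 843 bp in NFOs. The Msi2 peak was stronger than those of 92.1% of genes in OPCs and 86.2% in NFOs, while the Msi1 peak in OPCs was stronger than those of 19.1%. The start of the lincRNA C030037D09Rik lies 132 bp from a start of Msi2, and that of Gm43231 lies 124 bp from one of Msi1.

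The absence of a peak in NFOs went with a weak peak in OPCs over all genes. Of protein-coding genes with H3K4me3 in NSCs and OPCs, 62.4% lacked it in NFOs where the OPC fold enrichment was from 4 to 5, 28.7% where it was from 6 to 7, and 1.86% where it was 9 or above. Nes, Vim and Msi1 were in the first of these bands and all 3 lacked it. Prom1 was the only 1 of 4 in the second band, beside Nr2e1, Lin28b and Igf2bp1, that lacked it. Fabp7 and Msi2 were in the last band and both kept it.

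**Figure D3:**
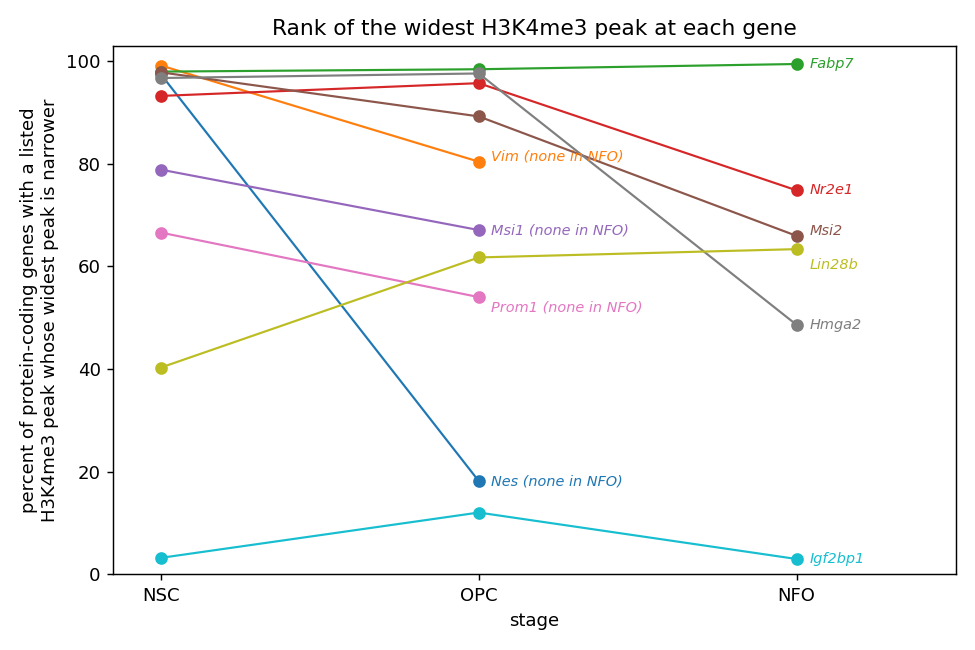
Rank of the widest H3K4me3 peak at a TSS of each gene, as the percent of protein-coding genes with a listed peak in that library whose widest peak is narrower (vertical axis), in NSC, OPC and NFO (horizontal axis). Each line is 1 gene, and lines that end at OPC belong to the 4 genes with no listed peak in NFOs. Fabp7 stays at 98.0% or above, Nes stands at 97.5% in NSCs and 18.2% in OPCs, and Igf2bp1 stays at 12.03% or below.

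Where H3K4me3 was listed in NFOs it did not reach the outermost 5′ end of the gene, although at Lin28b it lay over another annotated TSS. The base at the 5′ end was covered by an H3K4me3 peak at 10 of the 10 genes in NSCs, 7 in OPCs and 0 in NFOs. Among all protein-coding genes the shares were 54%, 43.8% and 12.4%. Of the protein-coding genes that had an NFO peak, 28.5% had it over the 5′ end, against 0 of these 6. The gap was seen in OPCs too at Fabp7, Prom1 and Igf2bp1, where the peaks lay 12, 33 and 59 bp from the nearest annotated TSS. In NFOs the distance was 59 bp at Igf2bp1, 221 bp at Fabp7, 640 bp at Nr2e1, 759 bp at Msi2 and 1449 bp at Hmga2. Counts over a single base can turn on such short distances, and peak edges cannot be set side by side between NSCs and the later stages. From OPCs to NFOs the widest peak was narrower at 6 of 6 genes, as at 93.3% of all genes with a peak in both, and the strongest fold enrichment was lower at 2 of 6, Fabp7 and Lin28b, against 69.4%.

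Hmga2, Lin28b and Igf2bp1 belong to the fetal growth programme. Hmga2 encodes an architectural chromatin protein of young stem cells, Lin28b a blocker of let-7 microRNA processing, and Igf2bp1 an RNA-binding protein for growth-related mRNAs. They were the genes among the 10 where listed peaks of both marks overlapped at all 3 stages. The paper cautions that its overlap of the marks was not resolved in single cells, so overlapping peaks may come from different cells. Among the 10 genes, bivalent ones numbered 3 in NSCs, 4 in OPCs (with Nr2e1) and 3 in NFOs, against 8.57%, 5.45% and 2.9% of protein-coding genes. Under the definition in the Methods, by which neither mark may also stand alone at the gene, these counts were 2, 2 and 0. The shares of protein-coding genes above follow the looser rule and were not counted under this definition. The 0 in NFOs therefore has no background beside it and is not read as a result about these genes. Without that condition, bivalency at all 3 stages was found at 325 protein-coding genes (1.48%).

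The 3 genes reached it in different ways. Lin28b (chr10:45376620-45486395, minus strand) had H3K27me3 at 6.07-fold over control in NSCs, 6.71-fold in OPCs and 5.71-fold in NFOs, and H3K4me3 at 4.73-fold, 6.21-fold and 5.38-fold. In NSCs a 15416 bp and a 10624 bp H3K27me3 peak covered the first part of the gene, and over the window from 2 kb upstream to the gene end H3K27me3 covered 31.4 kb in NSCs, 17.7 kb in OPCs and 15.4 kb in NFOs. H3K4me3 covered 7.69 kb, 1.82 kb and 1.40 kb of that window. The 2 marks overlapped by 4385 bp, 774 bp and 386 bp within reach of a TSS. Lin28b was thus a wide H3K27me3 domain with smaller H3K4me3 peaks in it from the NSC stage on.

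Igf2bp1 (chr11:95957163-96005940, minus strand) resembled Lin28b. H3K27me3 stood 6.89-fold over control in NSCs, 9.75-fold in OPCs and 6.77-fold in NFOs. Its widest peak within 2 kb of a TSS measured 20422 bp, 5208 bp and 5889 bp. These were wider than the H3K27me3 peaks of 97.4%, 92.4% and 90.0% of genes with such a peak in the same list. The NSC peak ran from −11015 to 9406 bp. Within that span lay further upstream H3K27me3 peaks, of 5718 bp from −9438 to −3721 bp in OPCs and of 1627 bp from −9368 to −7742 bp in NFOs. H3K4me3 was narrow at each stage, with fold enrichments of 5.69 over 185 bp in NSCs, 6.33 over 626 bp in OPCs and 12.7 over 182 bp in NFOs. The widest H3K4me3 peak at this gene was wider than those of only 3.20%, 12.03% and 2.97% of genes. The OPC and NFO H3K4me3 peaks both ended at −59 bp. In NFOs this peak began at −240 bp and an H3K27me3 peak at −243 bp. Why such edges nearly coincide was not tested. The start of the antisense gene Gm29202 lies 51 bp from a start of Igf2bp1, and the lists carry no strand.

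Hmga2 (chr10:120361275-120476469, minus strand) had wide H3K4me3 and little H3K27me3 at its start. H3K4me3 had a fold enrichment of 9.89 over 4891 bp in NSCs, 5.30 over 3911 bp in OPCs and 9.57 over 236 bp in NFOs, where a second peak of 558 bp with 3.61 lay inside the gene. H3K27me3 had 3.51 over 274 bp in NSCs, 9.90 over 557 bp in OPCs and 8.21 over 281 bp in NFOs. All 3 of these H3K27me3 peaks lay between −1825 and −1128 bp, which was the upstream edge of the H3K4me3 peak in NSCs and OPCs. In NFOs the H3K27me3 peak shared 235 bp with the 236 bp H3K4me3 peak. In OPCs and NFOs the upstream edges of these H3K4me3 and H3K27me3 peaks all lay at −1684 or −1683 bp. Why edges from separate libraries coincide was not tested. The bivalent call of Hmga2 thus rested on this upstream stretch and not on the start. No gene with H3K27me3 at a TSS in NSCs had a narrower widest peak (0%).

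Within 2 kb of a TSS, each of these genes had 1 stretch under a called peak of all 6 histone lists, whereas 1.19% of protein-coding genes had such a stretch. It was 132 bp long at Hmga2 (−1683 to −1552 bp), 385 bp at Lin28b (809 to 1193 bp) and 67 bp at Igf2bp1. The short NFO H3K4me3 peak that holds that of Hmga2 is shown from the GRCm38 reference along the strand of the gene, since the bivalent call in NFOs rests on it, with CG in capitals.
Hmga2, chr10:120477918-120478153, minus strand: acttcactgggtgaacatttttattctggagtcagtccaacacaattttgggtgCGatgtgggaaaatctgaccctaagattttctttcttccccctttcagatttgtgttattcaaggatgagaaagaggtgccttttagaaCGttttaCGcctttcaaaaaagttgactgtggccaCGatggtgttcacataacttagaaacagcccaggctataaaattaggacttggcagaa
The Hmga2 stretch, 1449 bp or more from the start, held 4 CG in 236 bases with a GC content of 40.7%. Soft-masked bases made up 15.3% of it.

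H3K27me3 peaks inside the gene were most numerous at Msi2 and Hmga2 in OPCs. Msi2 spans 379 kb and held 21 such peaks away from its TSSs in OPCs, against 1 in NSCs and 5 in NFOs. Hmga2 held 8 in OPCs, 0 in NSCs and 3 in NFOs. Such peaks were not counted over all protein-coding genes or over genes of like length. The higher OPC counts are therefore not read as a trait of these genes. With the thresholds of the Methods, 17 of the OPC peaks and 1 of the NFO peaks were left at Msi2, and 7 and 0 at Hmga2. All listed H3K27me3 peaks at Msi2 covered 11.3 kb of its window in OPCs (2.97%) and 3.86 kb in NFOs (1.01%). At Lin28b such peaks covered 15.8% and 13.8% of the window at these stages, and 28.1% in NSCs. The mark was thus scattered at Msi2 and not a domain as at Lin28b. Of the 45 OPC H3K27me3 peaks at the 10 genes, 26 were under 500 bp and 4 consisted of soft-masked bases for more than 50%. Of the 13 OPC H3K4me3 peaks at these genes 2 were under 500 bp. Over all listed peaks the median width was 329 bp for OPC H3K27me3 and 987 bp for OPC H3K4me3. Short H3K27me3 peaks were thus common in the whole list and not a trait of these genes. The share of mostly soft-masked peaks over the whole list was not counted.

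**Figure D4:**
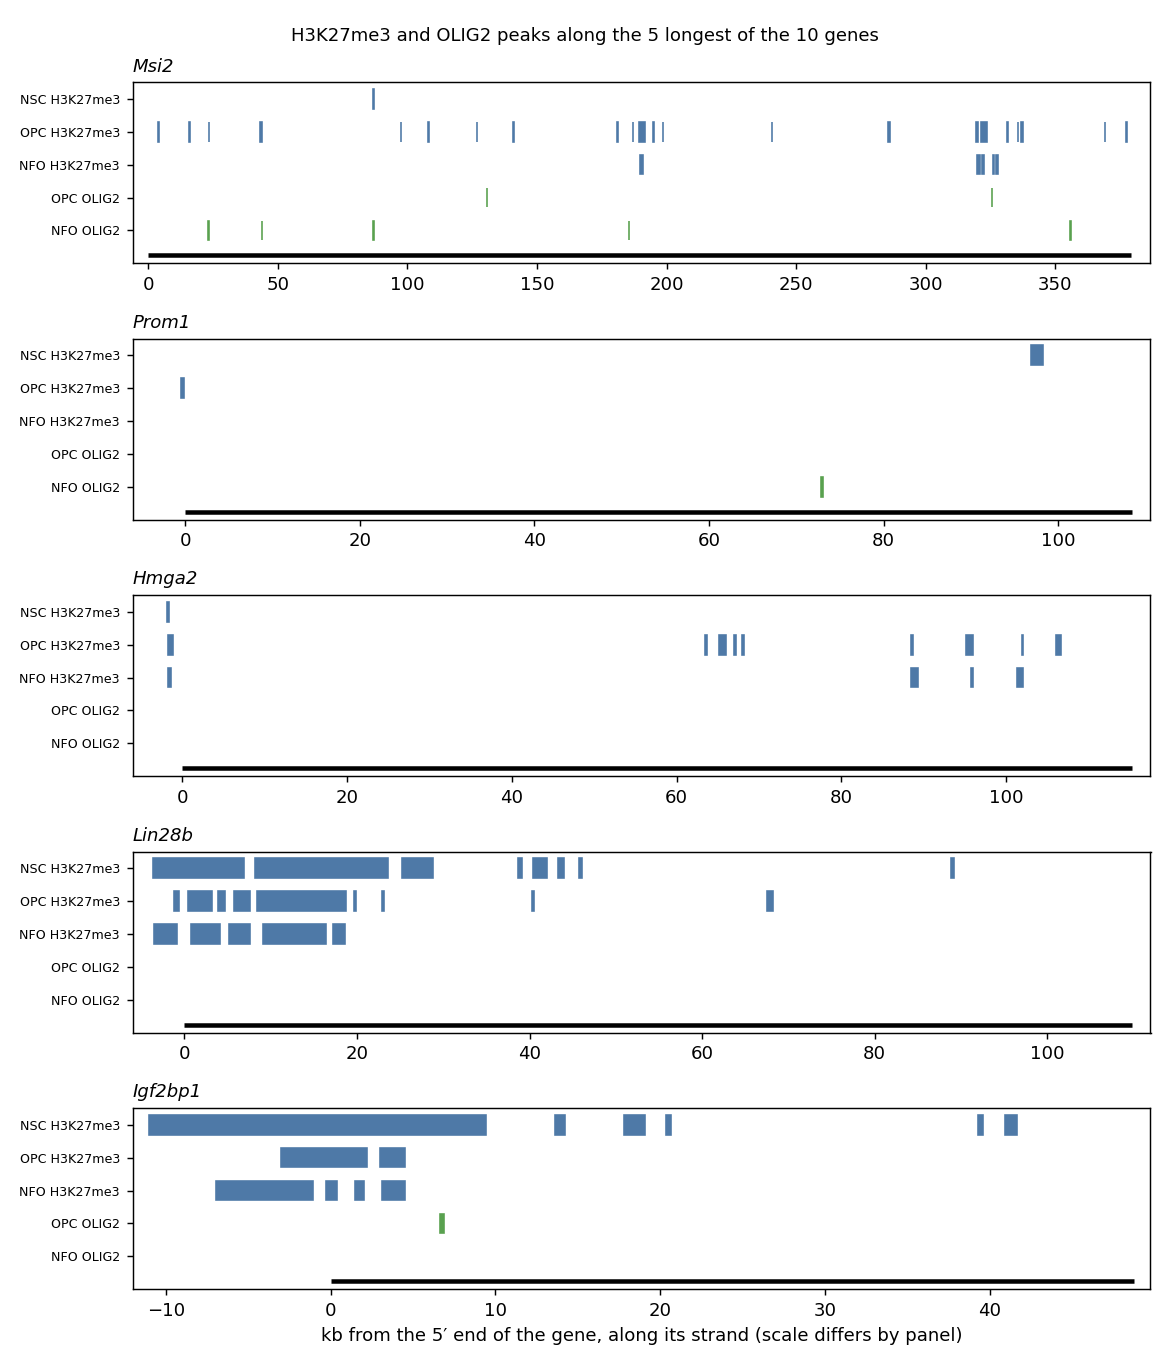
Listed H3K27me3 (blue, 3 stages) and OLIG2 (green, OPC and NFO) peaks along the 5 longest of the 10 genes (horizontal axis, kb from the 5′ end along the strand, with its own scale in each panel), with the gene as a black line and the shortest peaks drawn no thinner than a line. H3K27me3 fills the first part of Lin28b and Igf2bp1, is scattered over Msi2 in OPCs, and OLIG2 peaks fall on Msi2, Prom1 and Igf2bp1 alone.

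OLIG2 was listed at 2 of the 10 genes in OPCs (Msi2 and Igf2bp1) and 2 in NFOs (Msi2 and Prom1), while 16.5% and 28.2% of protein-coding genes had an OLIG2 peak. Nes, Vim, Fabp7, Nr2e1, Msi1, Hmga2 and Lin28b had none. Long genes hold more peaks by their length, and over windows from 5 kb upstream to the gene end the 10 genes held 0.341 peaks per 100 kb in OPCs and 0.681 in NFOs, beside 0.392 and 0.824 over all protein-coding genes. Of genes over 300 kb, the class of Msi2, 70% had an OLIG2 peak in OPCs and 91.2% in NFOs. Of genes from 100 to 300 kb, the class of Prom1, Hmga2 and Lin28b, 42.3% and 68.2% had one.

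All 9 OLIG2 peaks lay in introns and away from the starts. Msi2 had 2 in OPCs, with fold enrichments of 9.53 at chr11:88392858-88393087 and 5.89 at chr11:88587713-88587942. It had 5 in NFOs, with 7.49, 7.13, 9.31, 9.56 and 3.69. Neither OPC peak at Msi2 overlapped an NFO peak, and of all 7384 listed OPC peaks 14.3% overlapped one. The NFO peak at chr11:88695076-88695311, with the lowest value of 3.69, overlapped an H3K4me3 peak of the same cells, and was the only 1 of the 9 to overlap a histone peak of its own stage. The Prom1 peak in NFOs (chr5:44028997-44029232) had 6.95 and lay 3788 bp from the nearest TSS of Prom1. The Igf2bp1 peak in OPCs (chr11:95999045-95999274) had 4.06, under the threshold of 5 that the Methods set, and lay 6666 bp inside the gene, within the NSC H3K27me3 domain.

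The sequences of 4 OLIG2 peaks are shown, the strongest at Msi2 in each cell type and those of Prom1 and Igf2bp1, from the plus strand of GRCm38 with E-boxes (CANNTG) in capitals.
Msi2 OPC, chr11:88392858-88393087: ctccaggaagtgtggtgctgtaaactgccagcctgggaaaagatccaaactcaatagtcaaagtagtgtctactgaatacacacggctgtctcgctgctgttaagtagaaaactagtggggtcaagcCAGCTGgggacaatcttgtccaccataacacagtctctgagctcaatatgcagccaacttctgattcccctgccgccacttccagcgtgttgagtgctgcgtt
Msi2 NFO, chr11:88674444-88674679: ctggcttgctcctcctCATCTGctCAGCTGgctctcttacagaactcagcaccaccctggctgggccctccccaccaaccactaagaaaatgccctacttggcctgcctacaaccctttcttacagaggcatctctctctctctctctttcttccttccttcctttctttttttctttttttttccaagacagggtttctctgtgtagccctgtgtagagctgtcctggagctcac
Prom1 NFO, chr5:44028997-44029232: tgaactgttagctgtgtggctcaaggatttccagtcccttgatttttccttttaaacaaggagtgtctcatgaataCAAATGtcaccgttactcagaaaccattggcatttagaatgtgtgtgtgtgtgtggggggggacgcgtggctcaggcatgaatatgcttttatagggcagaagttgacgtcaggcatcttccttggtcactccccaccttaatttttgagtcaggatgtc
Igf2bp1 OPC, chr11:95999045-95999274: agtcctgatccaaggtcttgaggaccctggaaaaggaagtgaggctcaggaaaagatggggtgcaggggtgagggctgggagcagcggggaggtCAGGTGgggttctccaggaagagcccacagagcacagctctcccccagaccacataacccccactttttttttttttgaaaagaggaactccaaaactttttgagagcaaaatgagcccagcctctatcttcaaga
CANNTG was found in 3 of 3 OPC and 5 of 6 NFO peaks at these genes, beside 70.4% and 69.3% of all listed OLIG2 peaks, which have median widths of 230 and 236 bp. CAGCTG was found in 2 of 3 and 2 of 6, all at Msi2, beside 13.6% and 10.1%. CAGATG, read on both strands, was found in 1 of 3 and 1 of 6, again at Msi2, beside 18.9% and 17.4%. CAGCTG and CAGATG are also counted as CANNTG. Of the Msi2 NFO peak shown, 74.6% of the bases are soft-masked.

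For the 7 genes without an OLIG2 peak, the nearest one was measured from the 5′ end. In OPCs it lay at 19.3 kb for Msi1, 21.8 kb for Nr2e1, 56.3 kb for Vim and 101 kb for Nes, and at 252 kb for Fabp7, 276 kb for Hmga2 and 296 kb for Lin28b. In NFOs it lay at 13.8 kb for Msi1, 17.4 kb for Nes and 40.8 kb for Nr2e1, and at 123 kb for Hmga2, 284 kb for Lin28b, 299 kb for Fabp7 and 354 kb for Vim. The nearest peaks of Msi1 had fold enrichments of 4.84 in OPCs and 3.27 in NFOs and those of Nes 3.69 and 2.35, under the threshold of 5, as were the OPC ones of Hmga2 (4.85) and Lin28b (4.50). Those of Nr2e1 had 5.65 and 16.4. In the RNA immunoprecipitation, none of the 101310 OLIG2 sites or 83195 IgG sites lay on any of the 10 genes. These sites fell on only 613 and 618 genes, while the annotation holds 55450. A lack of sites at 10 genes is therefore not read as a result about them. The labels of these libraries give NFOs and the Methods NSCs as the cells.

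The 14 other genes of neural stem cells and radial glia had H3K4me3 at 14 of 14 and H3K27me3 at 4 in NSCs. In OPCs all 14 kept H3K4me3 and 8 had H3K27me3, and in NFOs the counts were 12 and 8. Egfr, the receptor of a mitogen of these cells, went from a fold enrichment of 12.6 in NSCs to 5.56 in OPCs and no listed peak in NFOs, as Nes did. Sox2, the pluripotency and stem cell factor, had H3K4me3 only at each stage, with 9.84, 11.02 and 8.43. Pax6, a cortical progenitor factor, had no listed H3K27me3 in NSCs and 13.3 in OPCs and 5.71 in NFOs.

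Of 6 relatives and partners of Hmga2, Lin28b and Igf2bp1, all 6 had H3K4me3 at the NSC stage, 5 at the OPC stage and 4 at the NFO stage. H3K27me3 was listed at 2, 4 and 4. Lin28a, the paralogue of Lin28b, was bivalent in NSCs and had H3K27me3 only in OPCs and NFOs, with fold enrichments of 10.7 and 7.93. Trim71, another gene of the let-7 circuit, was bivalent at all 3 stages like Lin28b. Hmga1, the paralogue of Hmga2, had H3K4me3 only in NSCs and OPCs, with 6.80 and 5.07, and neither mark in NFOs.

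The protein-coding genes most like each of the 10 were taken by the Euclidean distance over the 6 log2 fold enrichments, which come from 6 single libraries. A library without a listed peak at a TSS of the gene counted as 0. A shared 0 adds no distance, and genes with fewer listed peaks can share more of them. Distances are therefore not ranked between the 10 genes. Nr2e1 was nearest to Tnc, at 0.24, with fold enrichments of 9.99, 7.46 and 10.3 for H3K4me3 in NSCs, OPCs and NFOs, and then to Rbm38 and Tyro3. Lin28b was nearest to Foxd2 (0.36), Lhx1 (0.44) and Pax1 (0.47), and Igf2bp1 to Cbln1 (0.31), Adamts2 (0.40) and Hs3st4 (0.53). The nearest to Hmga2 were Usp44 (0.42), Mtus1 (0.53) and Tacc1 (0.72). Msi1, with fewer listed peaks, was nearest to Rfesd (0.01), Zbed5 (0.02) and Pex10 (0.03). Nes was nearest to A730015C16Rik, Kti12 and Ift88, Vim to Foxo6, Rnaseh2c and Hibadh, Fabp7 to Ppp1cc, Pcf11 and Casp2, Msi2 to Tle2, Rorb and Pura, and Prom1 to Tardbp and the 2 annotated entries of Sssca1.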

How the data were processed

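H3K4me3 and H3K27me3 peak lists of NSCs, OPCs and NFOs, OLIG2 peak lists of OPCs and NFOs and 2 RIP site lists were used, 1 library each, grouped by title. The 3 input libraries were not used here. The authors mapped reads to mm10 (GRCm38) with Bowtie2 and called broad histone peaks with MACS2 and OLIG2 peaks with SPP. The deposited fold enrichment is a ratio over control, and the deposited lists also give −log10 p and −log10 FDR values, down to an FDR near 0.1. The deposited RIP lists from ASPeak give a tag count, a transcript RPKM and a p-value for each site. Of these only the sites' positions were used.

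Every listed peak was used. Peaks were assigned to GENCODE release 21 genes (2 kb from any transcript TSS, overlap of 1 bp) with Python 3, NumPy and pandas, and a gene was called bivalent where an H3K4me3 and an H3K27me3 peak at its TSSs overlapped. The assignment was run on simulated peaks, at most 1 per mark, at set distances from the starts of genes far apart. It recovered the state of 2000 of 2000 genes. This checks that the rule runs as written, not its accuracy where genes lie close or hold several peaks. Sequences were read from GRCm38.p6 with pysam. The genes named besides the 10 were those of the lists, those with a start near or in the 10 genes, and the 3 nearest in pattern. The genes and lists were chosen with earlier results of these data known. A marker gene and a promoter stretch are not reported here.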

Additional observations from a re-analysis of the deposited data

How the results depend on the processing

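Counts of members were recomputed with other settings in 72 cases, and 59 stayed within 1.5 times. Some of these could not move. All OLIG2 peaks at these genes lay in introns, so a shorter upstream distance or the gene body alone had to give the same counts. The same holds for the centre of the peak. With counts this small, a fall from 3 to 2 also stayed within 1.5 times. H3K4me3 counts did so in each case, but above a fold enrichment of 5 and under an FDR of 0.05 they fell. They were then 9 in NSCs, 7 in OPCs and 5 in NFOs. Lin28b fell out in NSCs, Nes, Vim and Msi1 in OPCs, and Fabp7 in NFOs. With peaks kept only above a fold enrichment of 5 and under an FDR of 0.05, members with H3K27me3 at a TSS numbered 2 in NSCs (4 with all listed peaks) and 4 in OPCs (7), and bivalent members 1 in NSCs (3). Within 1 kb of a TSS, H3K27me3 was at 4 members in OPCs and 2 in NFOs (4). With peaks of at least 500 bp, H3K27me3 was at 3 members in OPCs, and bivalent members numbered 1 in NSCs and 1 in NFOs (3). Under the bivalent definition of the Methods, which a mark alone at a TSS ends, 2 were left in OPCs (4) and 0 in NFOs. OLIG2 was at 1 member in OPCs (2) with a fold enrichment above 5, and at 0 in OPCs and 0 in NFOs (2) above 10. Leaving out peaks of mostly soft-masked bases, a setting chosen after seeing the data, moved no count by more than 1.5 times. The definition keeps every peak and the other settings keep fewer peaks or a smaller window, and no other cause was tested. With 1 library per condition and unknown depth, the presence or absence of a short or weak peak has no measure of error. No paired analysis was possible because each condition had 1 library.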
